A study of Rattus norvegicus with 6 samples.

Results

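The matrix metalloproteinases and their tissue inhibitors were followed in HEI-OC1 cells, an immortalized line from the auditory sensory epithelium, treated with an siRNA against Hnrnpd. The 10 genes chosen by name were the metalloproteinases Mmp2, Mmp3, Mmp9, Mmp11, Mmp13, Mmp14 and Mmp19 and the inhibitors Timp1, Timp2 and Timp3, as secreted or cell surface factors linked to senescence. Of these, 8 had a row among the 18718 genes of the count table. Mmp11 and Timp3 had no row under these symbols and were not analysed here. The product of Hnrnpd, AUF1, binds AU-rich stretches of mRNAs and affects how fast they decay. The 2 groups were 3 libraries of AUF1 knock down cells, called siHnrnpd 1 to 3, and 3 libraries of cells given a control siRNA, called control 1 to 3. Both groups were the same line, grown in the same serum-containing medium, and nothing in the labels ties the replicates to separate cultures. The p-values therefore reflect only how much these 6 libraries scatter, and that scatter may be technical. The siRNA leaves part of the target mRNA in place, so the cells are a partial depletion and not a knockout. According to the labels the organism is rat, whereas HEI-OC1 is usually described as murine, and which species the reads match was not tested. Levels compared between genes, and low or missing rows, may depend on how well each gene maps to the rat reference. This was not tested either. In a bulk sample, fewer cells of a kind and less RNA per cell cannot be told apart.

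Matrix metalloproteinases are zinc-dependent endopeptidases that cut collagens, gelatins, proteoglycans and other matrix proteins, as well as cytokines and receptors. They are made as inactive precursors held shut by a cysteine in the propeptide, and are opened by other proteases such as plasmin, furin or other metalloproteinases. The TIMP proteins block the open active site, and TIMP-2 also takes part in the activation of the gelatinase MMP-2 by the membrane-bound MMP-14. Senescent cells are widely described as secreting metalloproteinases together with cytokines and chemokines, and several metalloproteinase promoters respond to the transcription factor AP-1.

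The libraries held 28984535 to 35842904 gene counts. Over the 12268 genes tested, control 1 was the highest or lowest of the 6 libraries in 49.0% of genes, siHnrnpd 1 in 43.1% and siHnrnpd 3 in 37.0%, against 21.7% to 27.1% for the other 3. Hnrnpd, listed under its older symbol Hnrpd, fell by 37.2% with the siRNA (95% interval 28.6% to 44.7% lower, adjusted p = 0.0426 in edgeR's quasi-likelihood test with Benjamini-Hochberg adjustment). Its 3 siHnrnpd values, 177, 200.2 and 183 CPM (counts scaled to the effective library size), were below its 3 control values, 319, 303 and 269 CPM. Leaving out 1 library kept that direction, and the call was lost without control 1, 2 or 3 and without siHnrnpd 1 or 3 (adjusted p 0.0508 to 0.319). Of 14 hair cell marker genes, 9 had a row and 8 of these stayed under 1 CPM in every library, with Myo6 the exception, and Atoh1 and Pou4f3 had no row. The summed level of 12 fibroblast and mesenchymal markers was 7070 to 7590 CPM in control and 7210 to 8630 CPM in siHnrnpd. It was highest in siHnrnpd 3, and 3 of the 12 (Dcn, Postn and Acta2) stayed under 1 CPM in every library. Of 12 supporting cell and prosensory markers 7 had a row, and 3 of these stayed under 1 CPM in every library. The sum of this list was 109 to 123 CPM in control and 98.2 to 124 CPM in siHnrnpd. Of 10 macrophage and leukocyte markers 7 stayed under 1 CPM in every library, Ptprc, Adgre1 and Csf1r among them, and the sum of the list, nearly all of it Cd14, was 61.5 to 66.5 CPM in control and 69.8 to 72.8 CPM in siHnrnpd. The part of these markers in the values below was not tested.

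The proximal promoters of the 4 measured members with a promoter sequence in the reference used are shown. Mmp13 and Mmp3 lie in the same gene cluster, and the windows of both hold the AP-1 motif. Their mRNA levels differed widely, and Timp1 and Timp2 were the most abundant members. Whether the motif bears on these levels was not tested. The windows run from 250 bases before to 50 after the RefSeq start in the rat assembly GRCr8, 5′ to 3′ on the coding strand, and capitals mark the AP-1 motif TGACTCA or its reverse complement TGAGTCA.
Mmp13, chr8:12782579-12782878, + strand: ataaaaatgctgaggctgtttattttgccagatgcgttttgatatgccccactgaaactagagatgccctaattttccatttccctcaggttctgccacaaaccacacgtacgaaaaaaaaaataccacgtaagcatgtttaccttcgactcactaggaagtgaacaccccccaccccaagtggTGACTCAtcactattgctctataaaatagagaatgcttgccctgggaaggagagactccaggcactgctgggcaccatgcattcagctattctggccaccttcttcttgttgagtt
Mmp3, chr8:12925031-12925330, + strand: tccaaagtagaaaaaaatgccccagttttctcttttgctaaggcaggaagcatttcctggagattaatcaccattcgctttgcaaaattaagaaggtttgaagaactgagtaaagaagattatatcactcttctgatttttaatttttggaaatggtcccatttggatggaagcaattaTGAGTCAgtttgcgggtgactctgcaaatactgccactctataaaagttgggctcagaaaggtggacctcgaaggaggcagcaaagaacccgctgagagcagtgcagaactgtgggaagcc
Timp1, chrX:3771073-3771372, - strand: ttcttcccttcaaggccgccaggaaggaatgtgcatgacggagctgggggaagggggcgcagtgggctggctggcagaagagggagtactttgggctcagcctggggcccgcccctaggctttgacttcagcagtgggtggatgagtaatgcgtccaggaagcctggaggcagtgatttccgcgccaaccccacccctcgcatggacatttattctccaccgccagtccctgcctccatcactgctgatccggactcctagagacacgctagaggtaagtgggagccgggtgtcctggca
Timp2, chr10:104089165-104089464, - strand: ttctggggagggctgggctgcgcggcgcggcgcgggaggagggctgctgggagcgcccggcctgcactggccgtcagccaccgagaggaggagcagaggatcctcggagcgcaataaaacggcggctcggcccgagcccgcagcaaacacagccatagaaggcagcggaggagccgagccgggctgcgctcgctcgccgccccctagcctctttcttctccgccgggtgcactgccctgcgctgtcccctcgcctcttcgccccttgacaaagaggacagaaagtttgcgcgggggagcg
A RefSeq promoter was at hand for 6 of the 10 members, and the sequences are those of the reference rat, not of the cells. The AP-1 motif starts 66 bases before the start of Mmp13 and 71 bases before the start of Mmp3, on opposite strands. It was not found in the windows of Timp1, Timp2, Timp3 or Mmp11, and 4.63% of all 33469 promoter windows held it. Only exact matches were searched, and near matches such as tgagtaa in the Timp1 window were not counted. A second motif, TATAAA on either strand and not overlapping the AP-1 motif, was found in the same 2 windows, Mmp13 and Mmp3, and in 14.2% of all windows. The GC content of the windows was 45.3% for Mmp13 and 42.0% for Mmp3, against 61.3% for Timp1 and 70.3% for Timp2. A match is a run of letters and not a measured binding site.

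The inhibitors dominated the family. In the authors' FPKM, a level scaled for transcript length and depth, Timp1 had the highest level of the 8 measured members, at 499 ± 43.1 in control (SD, n = 3), rank 203 of 18628 genes. Timp2 followed at 330.0 ± 20.6 FPKM, rank 305. Timp1 and Timp2 together held 86.8%, 88.8% and 89.6% of the summed FPKM of the 8 members in the 3 controls, and 89.3%, 88.4% and 86.0% in siHnrnpd 1 to 3. The Timp1 level exceeded that of Mmp13, the most abundant metalloproteinase among the members, 9.44-fold in control. By read counts the order of the inhibitors was the other way round, since Timp2 had more CPM than Timp1 in every library. Only the FPKM scale corrects for transcript length, and neither scale corrects for how well reads map to the rat reference.

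Among the metalloproteinases, Mmp13, which encodes collagenase-3, an enzyme that cuts fibrillar collagens, had 52.9 ± 6.09 FPKM in control and rank 1668. Mmp14, the membrane-type enzyme MT1-MMP, had 28.8 ± 1.34 FPKM. Mmp19, a secreted enzyme of broad substrate range, had 26.0 ± 0.454 FPKM. The 6-library ranges of Mmp14 and Mmp19 overlapped, 27.27 to 33.1 against 25.53 to 29.45 FPKM, so these neighbours in the order were not separated over all libraries, although their control ranges were. Mmp3, which encodes stromelysin-1, stood 139-fold below Mmp19 at 0.187 ± 0.0503 FPKM. The gelatinases Mmp9 and Mmp2 came last, at 0.0367 ± 0.0379 and 0.03 ± 0.02 FPKM, and neither Mmp3 and Mmp9 nor Mmp9 and Mmp2 were separated over the 6 libraries.

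**Figure D1:**
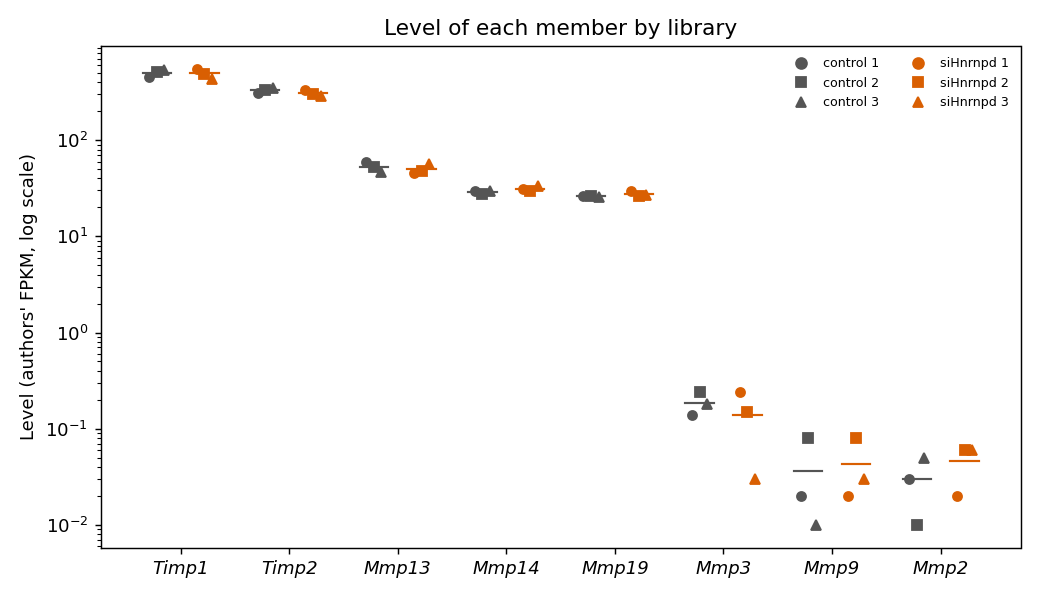
Level of each measured member in the authors' FPKM on a log axis, ordered by control mean, with 1 point per library and a short line at each group mean. Timp1 and Timp2 sit between 285 and 554 FPKM, Mmp13, Mmp14 and Mmp19 between 25.53 and 58.9, and Mmp3, Mmp9 and Mmp2 at or below 0.24, with control and siHnrnpd points close together for the 5 abundant genes.

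The secreted collagenase Mmp13 (ENSRNOG00000008478, chromosome 8) had 180.3, 164.7 and 140.5 CPM in controls 1 to 3 and 138, 148 and 169 CPM in siHnrnpd 1 to 3. The siHnrnpd values lay mostly within the control range, and the lowest control and the lowest siHnrnpd library were close together. The log2 change was -0.093 (SE 0.105, 95% interval -0.33 to 0.14, edgeR adjusted p = 0.791), which is a change of between 20.3% lower and 10.4% higher. The log2 change was -0.019 without control 1 and -0.029 without siHnrnpd 1, and -0.185 and -0.187 without control 3 and without siHnrnpd 3.

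The membrane-type enzyme Mmp14 (ENSRNOG00000010947, chromosome 15) had 85.1, 79.2 and 83.1 CPM in controls 1 to 3 and 88.6, 86.0 and 92.0 CPM in siHnrnpd 1 to 3. All siHnrnpd libraries lay above all control libraries, with a gap of under 1 CPM between control 1 and siHnrnpd 2. Groups did not overlap in 17.0% of all genes tested, and in 8.42% the siHnrnpd libraries were the higher ones, so 1 of 6 tested members (16.7%) is near the background. The log2 change was 0.11 (SE 0.0645, 95% interval -0.037 to 0.25, edgeR adjusted p = 0.567), or between 2.55% lower and 19.1% higher, and it was positive under all 16 alternatives.

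Mmp19 (ENSRNOG00000006778, chromosome 7) had 62.3, 62.4 and 59.1 CPM in controls 1 to 3 and 68.9, 61.5 and 62.0 CPM in siHnrnpd 1 to 3. The siHnrnpd 1 library was the highest and the other 5 lay within 59.1 to 62.4 CPM. The log2 change was 0.065 (SE 0.0707, 95% interval -0.093 to 0.22, edgeR adjusted p = 0.781). Without siHnrnpd 1 it was 0.011.

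Timp1 (ENSRNOG00000010208, chromosome X), a secreted inhibitor also known for growth factor-like activity, had 393, 453 and 456 CPM in controls 1 to 3 and 478, 430.3 and 369 CPM in siHnrnpd 1 to 3. Both the highest and the lowest of the 6 libraries were siHnrnpd libraries. The log2 change was -0.027 (SE 0.101, 95% interval -0.255 to 0.200, edgeR adjusted p = 0.945), or between 16.2% lower and 14.9% higher. The sign turned positive without control 2 (0.0053), without control 3 (0.0099) and without siHnrnpd 3 (0.054), so no direction can be given. In GRCr8 the span of Timp1 overlaps that of Syn1, a synapsin gene with 91 to 167 counts per library. The strand setting of the counting is not given in the sources used here, so reads of the overlapping genes cannot be told apart.

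Timp2 (ENSRNOG00000003148, chromosome 10), the inhibitor that bridges MMP-14 and the MMP-2 precursor, had 601, 660.2 and 669 CPM in controls 1 to 3 and 648, 597 and 539.8 CPM in siHnrnpd 1 to 3. The siHnrnpd 3 and 2 libraries were the lowest of the 6, and siHnrnpd 1 lay among the controls. The log2 change was -0.11 (SE 0.0829, 95% interval -0.30 to 0.073, edgeR adjusted p = 0.651), or between 18.7% lower and 5.22% higher. It was negative under all 16 alternatives, with -0.059 without siHnrnpd 3 and -0.084 without control 3 at one end and -0.178 without siHnrnpd 1 and -0.171 without control 1 at the other. Its span overlaps Cep295nl, which had 46 to 71 counts per library.

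**Figure D2:**
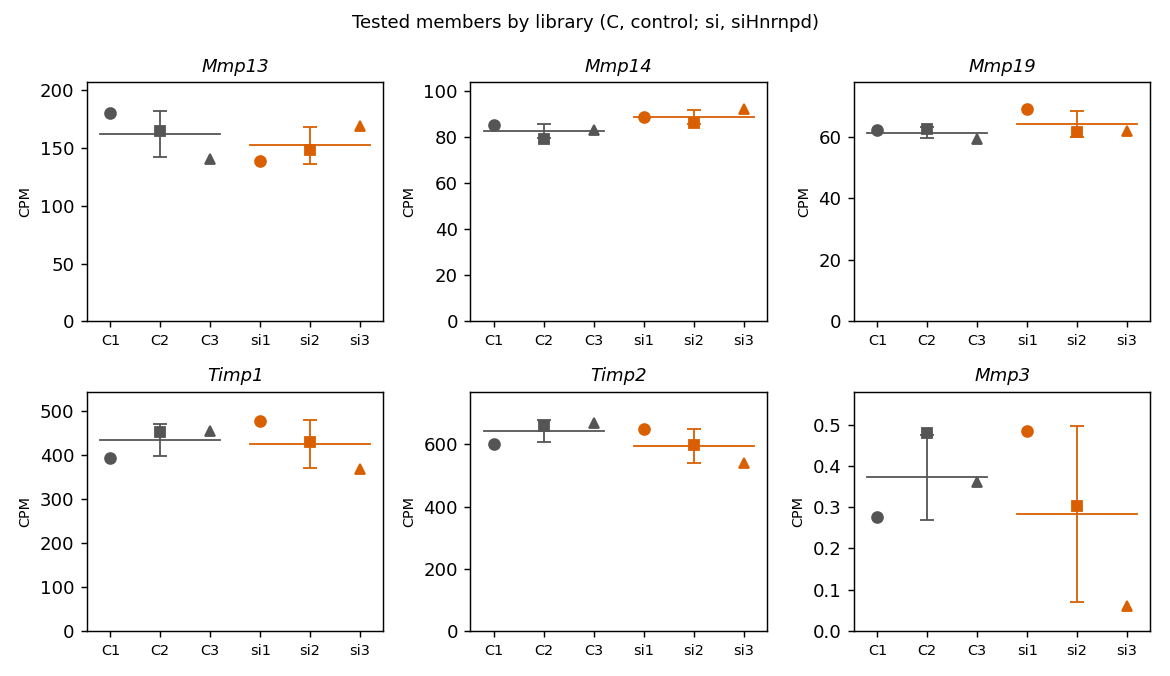
CPM of the 6 tested members in each library, with every axis starting at 0, a horizontal line at the group mean and an error bar of 1 SD (n = 3). Mmp14 is the panel in which the groups do not overlap, by a small margin, and Mmp3 is the panel in which siHnrnpd 3 stands far below the rest, at 0.0612 CPM from 2 counts.

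3 metalloproteinases were close to the limit of detection. Mmp3 (ENSRNOG00000032626, chromosome 8) had 8, 15 and 13 counts in controls 1 to 3 and 17, 10 and 2 counts in siHnrnpd 1 to 3. The libraries of the groups overlapped, and siHnrnpd 3 was the lowest. Mmp3 just passed the filter on low counts, and its log2 change of -0.38 had an SE of 0.547 and a 95% interval of -1.6 to 0.85 (edgeR adjusted p = 0.841). Without siHnrnpd 3 the log2 change was 0.071 and without siHnrnpd 1 it was -1.02, so no direction can be given for Mmp3 at this depth. Mmp2 (ENSRNOG00000016695, chromosome 19), gelatinase A, had 3, 1 and 6 counts in controls 1 to 3 and 3, 7 and 7 counts in siHnrnpd 1 to 3. Mmp9 (ENSRNOG00000017539, chromosome 3), gelatinase B, had 2, 9 and 1 counts in controls 1 to 3 and 2, 10 and 4 counts in siHnrnpd 1 to 3. Both gelatinases were under the filter, and a difference between groups was not detectable at this depth. The summed counts of Mmp2 gave 0.104 CPM in control (exact Poisson 95% interval 0.0498 to 0.191) and 0.169 CPM in siHnrnpd (0.0983 to 0.27), and those of Mmp9 gave 0.125 (0.0644 to 0.218) and 0.159 CPM (0.0907 to 0.258). These intervals cover counting error only.

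By edgeR's quasi-likelihood test 0 of 6 tested members were called at an adjusted p under 0.05, where 0.0815% of all genes tested were called. At an unadjusted p under 0.05 the count was also 0 of 6, against 11.0% of all genes. DESeq2 called 0 of the 5 members to which it gave an adjusted p (1.41% of all such genes), limma-voom called 0 of 6 (0.106% of genes), and edgeR without the filter called 0 of 8 (0.785% of genes), with 0 members at an unadjusted p under 0.05 in each. The median log2 change of the tested members was -0.06, with 2 positive and 4 negative, beside a median of 0.0054 over all genes tested. Without siHnrnpd 3 the median of the members was 0.062. A p that misses the threshold does not show equal levels: the intervals reach 20.3% lower in Mmp13, 19.1% higher in Mmp14, 16.8% higher in Mmp19, 16.2% lower in Timp1 and 18.7% lower in Timp2, while that of Mmp3 runs from 67.1% lower to 80.1% higher.

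**Figure D3:**
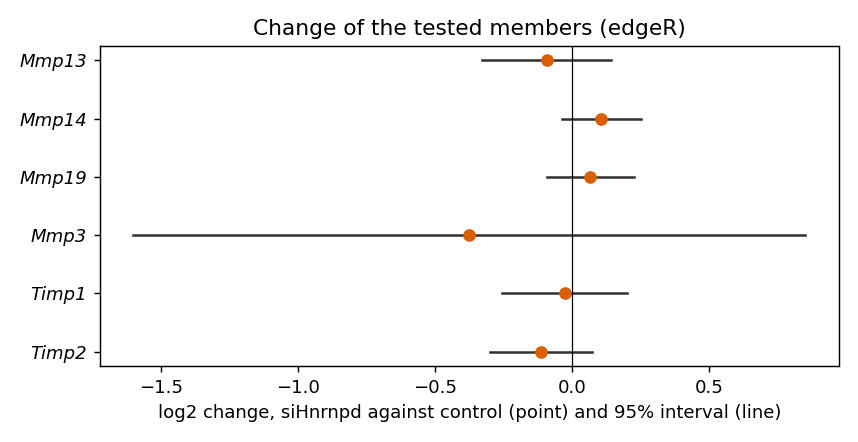
Log2 change of the 6 tested members, siHnrnpd against control, from edgeR (points) with 95% intervals (lines). All 6 intervals include 0, and that of Mmp3 is the widest, from -1.6 to 0.85.

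Among the abundant members the groups overlapped for Mmp13, Mmp19, Timp1 and Timp2, and not for Mmp14. Over all 6 libraries, from the highest to the lowest library Mmp13 spanned 0.384 on the log2 scale, Timp1 0.372 and Timp2 0.308, while Mmp14 and Mmp19 spanned 0.215 and 0.219. Mmp13 and Timp1 ran in nearly opposite order: control 1 and siHnrnpd 3 were the highest libraries for Mmp13 and the lowest for Timp1, and siHnrnpd 1 was the lowest for Mmp13 and the highest for Timp1. Mmp13 relative to the control mean of log2 CPM was 0.163 in control 1 and -0.221 in siHnrnpd 1, where Timp1 was -0.141 and 0.143. Control 1 and siHnrnpd 3 had the fewest gene counts, 28984535 and 31735235, whereas control 3 and siHnrnpd 1, with low Mmp13 and high Timp1, had the most, 35842904 and 35534620. Within each group these levels thus moved with depth. Between the groups, control 2 and siHnrnpd 3 had nearly equal depth, 31787216 and 31735235, with Timp1 at 0.066 and -0.23. Mmp13 was at 0.033 and 0.07 in the same libraries. The part of depth in these levels was not tested.

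**Figure D4:**
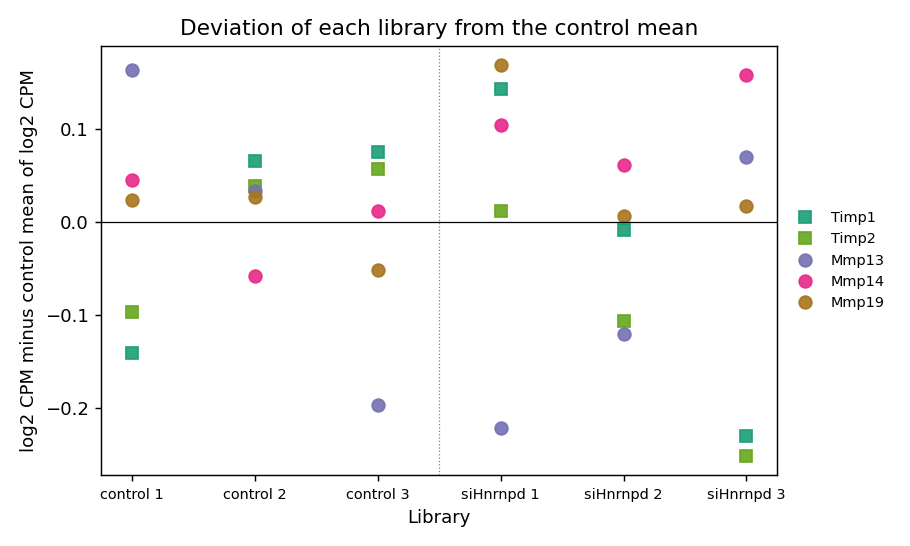
Log2 CPM of the 5 abundant members in each library minus the control mean of log2 CPM, with squares for the inhibitors and circles for the metalloproteinases. Timp1 is lowest in control 1 and siHnrnpd 3, the libraries in which Mmp13 is highest, and Mmp14 lies above 0 in all siHnrnpd libraries.

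The balance of inhibitor to protease mRNA did not separate the groups. The summed FPKM of Timp1 and Timp2 over that of the 6 measured metalloproteinases was 6.59, 7.93 and 8.64 in the 3 controls, and 8.35, 7.63 and 6.16 in siHnrnpd 1 to 3. Both groups covered nearly the same range, with means of 7.72 ± 1.04 and 7.38 ± 1.11 (SD, n = 3 each). Mmp14 over Timp2, the pair that acts together on the MMP-2 precursor, was 0.0965, 0.0818 and 0.0848 in control and 0.0931, 0.0982 and 0.116 in siHnrnpd. Control 1 lay above siHnrnpd 1 in this ratio, so the groups overlapped. Mmp13 made up 51.1%, 49.7% and 45.8% of the summed metalloproteinase FPKM in control and 42.8%, 46.2% and 48.6% in siHnrnpd.

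Mmp13 and Mmp3 belong to a run of 10 metalloproteinase genes on chromosome 8, with no other protein-coding gene between them in GRCr8. Mmp13 lies at one end of the run and had 4835 to 5519 counts per library. In the order of the assembly, Mmp12, the macrophage metalloelastase, had at most 2 counts, Mmp3 at most 17, Mmp10, stromelysin-2, at most 10, Mmp8, the neutrophil collagenase, at most 1 and Mmp7, matrilysin, at most 3. Mmp1, Mmp1b, Mmp20 and Mmp27 had no row. In control the Mmp13 level was 283-fold that of Mmp3 in FPKM. How well each of these genes maps to the rat reference was not tested. Mmp10 had 10, 3 and 0 counts in controls 1 to 3 and 4, 0 and 1 counts in siHnrnpd 1 to 3, too few to compare the groups.

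Genes that act with the metalloproteinases were read from 8 lists by role. Of 138 listed genes 118 had a row and 95 were tested. By edgeR 0 of the 95 were called, against 0.0815% of all genes tested. Of the 95, 17 had an unadjusted p under 0.05, 13 of them higher and 4 lower, against 11.0% of all genes tested. The groups did not overlap in 20 (21.1%, against 17.0% of all genes). DESeq2 called 3 higher, Serpinb2 and Col5a1 among them, and 2 lower (Ccl2 and Cxcl1) of the 92 to which it gave an adjusted p. Over all genes with an adjusted p, DESeq2 called 1.41%. limma-voom called 0 of 95 (16 at an unadjusted p under 0.05), against 0.106% of all genes. Without the filter edgeR called 3 of 118, Serpinb2 and Ccl2 among them, against 0.785% of all genes. Medians of the lists ran from 0.024 to 0.236 over all libraries. Except for the other metalloproteinases and the surface partners, each had a median below 0 without at least 1 of the libraries. The lowest, that of the plasminogen list, was -0.026 without control 1, -0.004 without siHnrnpd 3, 0.059 and 0.072 without siHnrnpd 1 and 2, 0.095 without control 3 and 0.171 without control 2.

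Of the other metalloproteinases, 9 of 16 had a row and 3 were tested, with 0 called by edgeR (0.0815% of all genes tested). The unadjusted p was under 0.05 for 1 of the 3, Mmp16, against 11.0% of all genes tested. Mmp16, the membrane-type enzyme MT3-MMP, had 28.7, 24.6 and 22.1 CPM in controls 1 to 3 and 27.5, 30.3 and 31.0 CPM in siHnrnpd 1 to 3. Control 1 exceeded siHnrnpd 1, so the groups overlapped, and the log2 change of Mmp16 was 0.24 (SE 0.103, edgeR adjusted p = 0.443). Mmp17 and Mmp15 had at most 1.26 and 0.941 CPM, with log2 changes of 0.42 (SE 0.275) and -0.0085 (SE 0.288). Of the 6 genes listed as other inhibitors, with Pcolce counted among them, 3 were tested and 0 called. The unadjusted p was under 0.05 for 1 of the 3, Timp4, against 11.0% of all genes tested. Its groups were also the only ones of the 3 without overlap (33.3%, against 17.0% of all genes). Timp4, the fourth TIMP, had 14, 20 and 25 counts in control and 13, 9 and 14 in siHnrnpd, and the groups did not overlap in CPM (log2 change -0.77, SE 0.308, edgeR adjusted p = 0.418). Reck, a membrane-anchored inhibitor, had 23.0 ± 1.91 and 24.1 ± 0.639 CPM (SD, n = 3 each), and Pcolce, an enhancer of procollagen processing that has a TIMP-like domain, had 921 to 1137 CPM in control and 1002 to 1163 CPM in siHnrnpd.

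Plasmin opens several metalloproteinase precursors, and 9 of 15 genes of the plasminogen system and the proprotein convertases were tested. By edgeR 0 were called, and 2 of 9, both higher, had an unadjusted p under 0.05, against 11.0% of all genes tested. The groups did not overlap in 2 of 9 (22.2%, against 17.0% of all genes). Serpinb2, the plasminogen activator inhibitor PAI-2, had 4.38, 3.62 and 3.07 CPM in control and 5.89, 6.07 and 5.94 CPM in siHnrnpd. Its groups did not overlap, and its log2 change was 0.70 (SE 0.15, edgeR adjusted p = 0.171, DESeq2 adjusted p = 0.0208). Plaur, the urokinase receptor, had 16.6 ± 2.07 and 18.7 ± 1.77 CPM (SD, n = 3 each), and the urokinase gene Plau had no row.

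All 14 genes of cell surface partners and clearance were tested. Of these 0 were called and 0 had an unadjusted p under 0.05, against 0.0815% and 11.0% of all genes tested. Cd44, a hyaluronan receptor that can hold MMP-9 and MMP-14 at the cell surface, had 208 to 233 CPM in control and 227 to 253 CPM in siHnrnpd, and Sdc1, the heparan sulfate proteoglycan syndecan-1, had 62.1 ± 0.49 and 70.6 ± 10.6 CPM (SD, n = 3 each). Cd151, a tetraspanin, ranged from 7.14 to 75.2 CPM among the controls alone, with 207, 1408 and 2716 counts, and from 15.2 to 29.02 CPM in siHnrnpd. Of 28 ADAM and ADAMTS proteases, relatives of the metalloproteinases that shed membrane proteins or cut proteoglycans, 18 were tested and 0 called. Of these, 1 higher gene, Adam23, and 1 lower gene, Adam19, had an unadjusted p under 0.05, against 11.0% of all genes tested. The groups did not overlap in 2 of 18 (11.1%, against 17.0% of all genes). Adam23, a member without protease activity, had 2.38, 2.37 and 2.38 CPM in control and 3.31, 3.53 and 2.88 CPM in siHnrnpd (log2 change 0.45, SE 0.149, edgeR adjusted p = 0.336), and its groups did not overlap. Adam19 had 39.6 ± 1.24 and 35.6 ± 1.21 CPM and Adam8 had 0.695 ± 0.148 and 0.484 ± 0.119 CPM (SD, n = 3 each).

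Matrix substrates were tested in 22 of 25 cases with 0 called by edgeR. An unadjusted p under 0.05 was found for 3 of 22, against 11.0% of all genes: the collagen genes Col5a1, Col5a2 and Col1a1, all higher. Other collagen genes of the list did not pass, such as Col3a1 with a log2 change of 0.036 (SE 0.065) and Col1a2 with 0.087 (SE 0.161), both with overlapping groups. Col5a1 had 52.7, 54.7 and 56.7 CPM in control and 69.2, 66.7 and 68.4 CPM in siHnrnpd. The groups stood well apart for Col5a1, with a log2 change of 0.32 (SE 0.0637, edgeR adjusted p = 0.146, DESeq2 adjusted p = 0.0176). Col5a2 had 256 to 290.5 CPM in control and 311 to 335 CPM in siHnrnpd. Col1a1 had 1918, 2053 and 2308 CPM in control and 2729, 2328 and 2746 CPM in siHnrnpd, a narrow gap. Their groups did not overlap, with log2 changes of 0.24 (SE 0.0698) and 0.31 (SE 0.0961) and edgeR adjusted p of 0.288 and 0.322. Over the whole list the groups did not overlap in 6 of 22 (27.3%, against 17.0% of all genes), 4 higher and 2 lower. Col1a1 is also one of the fibroblast and mesenchymal markers, whose summed level is given above.

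All 15 genes with a row among the AP-1 and ETS transcription factors, which act on metalloproteinase promoters, were tested and 0 were called by edgeR. The 3 of 15 with an unadjusted p under 0.05, all higher, were Etv4, Junb and Fosl1, where 11.0% of all genes had such a p. Etv4, an ETS factor, had 29.1, 31.4 and 35.01 CPM in control and 37.0, 37.8 and 41.0 CPM in siHnrnpd, without overlap (log2 change 0.28, SE 0.0845, edgeR adjusted p = 0.317). The AP-1 subunit gene Junb had 74.4 ± 12.2 and 93.1 ± 7.85 CPM, with overlap, and Fosl1, which encodes the AP-1 subunit FRA-1, had 60.9 ± 5.52 and 71.6 ± 5.69 CPM, without overlap (SD, n = 3 each). Over these 15 genes the groups did not overlap in 2 (13.3%, against 17.0% of all genes). The median of the list was 0.048 over all libraries. Leaving out 1 library moved it to -0.0038, 0.0095 and 0.011 without controls 1, 2 and 3, and to -0.028, 0.019 and 0.121 without siHnrnpd 1, 2 and 3.

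Of 18 cytokines and growth factors that induce metalloproteinases, 11 were tested and 0 called by edgeR. Il1b and Tnf had no row and Il1a had at most 1 count. An unadjusted p under 0.05 was found for 5, of which 3 were higher and 2 lower, where 11.0% of all genes tested had such a p. The groups did not overlap in 7 of 11 (63.6%, against 17.0% of all genes). The list was chosen with earlier results of these data known, so this share is a description and not a test. The median of the list was 0.076, and -0.00087 without siHnrnpd 3. Ccl2, a monocyte chemokine, had 329, 391 and 348 CPM in control and 192, 259.7 and 189 CPM in siHnrnpd (log2 change -0.74, SE 0.124, edgeR adjusted p = 0.0804, DESeq2 adjusted p = 5.53e-07). Without siHnrnpd 2 edgeR called Ccl2. Cxcl1, a neutrophil chemokine, had 121, 126 and 122.5 CPM in control and 100.4, 107.8 and 93.25 CPM in siHnrnpd (log2 change -0.295, SE 0.071, edgeR adjusted p = 0.203, DESeq2 adjusted p = 0.0311). Hbegf, a growth factor that ADAM proteases shed from the membrane, had 16.4 ± 1.34 and 20.3 ± 1.62 CPM (SD, n = 3 each) and was not called (edgeR adjusted p = 0.325).

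**Figure D5:**
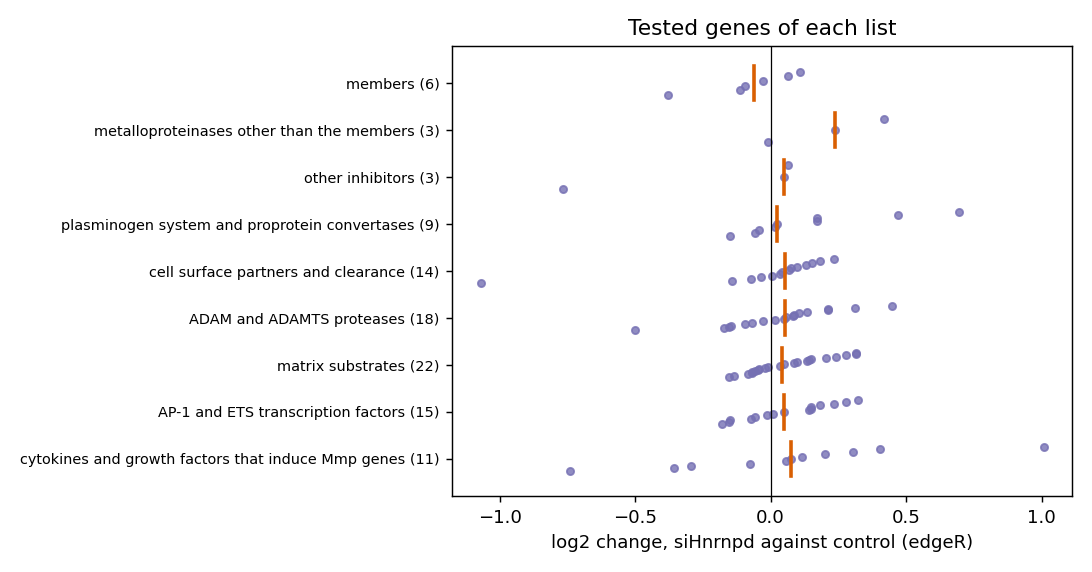
Log2 change (siHnrnpd against control, edgeR) of every tested gene of the members and of the 8 lists, with the number tested in brackets and an orange bar at each median. The members lie between -0.377 and 0.107 with a median of -0.06, and the outlying points elsewhere are Cd151 at -1.07, Timp4 at -0.77, Ccl2 at -0.74, Serpinb2 at 0.70 and Egf, with 4 to 18 counts per library, at 1.01.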

How the data were processed

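Total RNA of 6 libraries was read as 150 nt paired ends. The submitters' processing notes name TopHat2, a splice-aware aligner, and the build mRatBN7.2, with no further detail. For the counter, its strand setting and the annotation, nothing is stated (not given in the sources used here). The deposited count table holds whole-number counts per gene and library, not normalized, and the second deposited table gives the authors' FPKM, scaled for transcript length and depth, per gene. Each of the columns was matched to its sample by siRNA name and replicate number, and 0 stayed without a sample.

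Counts were fitted with edgeR 4.0.16 in R 4.3.3 (TMM, filterByExpr, quasi-likelihood test, group as the only term), with Benjamini-Hochberg adjustment over 12268 genes and calls under 0.05. Intervals are 95% intervals from the fit's moderated degrees of freedom. CPM uses TMM-scaled library sizes. DESeq2 1.42.0 and limma 3.58.1 gave alternatives, as did other scalings and filters, the replicate block, leaving out each library and log2(FPKM + 1) or log2(FPKM + 0.1). The code was tested on simulated counts with 200 changed genes. A chi-square test over genes found each of the 15 library pairs to differ beyond counting error.

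The members and lists were chosen with earlier results of these data known. Named genes were all members, Hnrnpd and up to 3 genes with the smallest p of each list, of which 1 is not reported here. Egf, Myo6, Cd14, Col3a1, Col1a2 and the genes of the chromosome 8 run and of overlapping spans were named after their values were seen.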

Additional observations from a re-analysis of the deposited data

How the results depend on the processing

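No tested member was called under any of the 93 fits of an alternative to a member, with adjusted p from 0.376 to 0.998, and 89 of the 93 kept the sign. The 4 that changed sign were Mmp3 without siHnrnpd 3 (0.071) and Timp1 without control 2 (0.0053), without control 3 (0.0099) and without siHnrnpd 3 (0.054). Leaving out 1 library gave log2 changes of -1.02 to 0.071 for Mmp3, -0.187 to -0.019 for Mmp13, 0.071 to 0.131 for Mmp14, 0.011 to 0.095 for Mmp19, -0.118 to 0.054 for Timp1 and -0.178 to -0.059 for Timp2. Mmp3 could not be fitted with the filter at 50 counts or with a mean FPKM of at least 1.

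The number of genes called over the whole table moved from 10 (3 higher, 7 lower) to 162 (55 and 107) with DESeq2, to 147 (46 and 101) without the filter, to 6 (3 lower) with upper-quartile scaling, to 0, 0 and 0 by limma on log2(FPKM + 1) with or without the minimum (1157 and 1604 at an unadjusted p under 0.05), and to 5 (1 and 4) on log2(FPKM + 0.1). limma-voom called 5 higher, as did the filter at 50 counts in 3 or more libraries. Leaving out 1 library gave 0 to 14 genes by edgeR, 0 to 7 higher and 0 to 7 lower, with 0 without any control (724 to 1919 at an unadjusted p under 0.05), 1 without siHnrnpd 1 and 14 without siHnrnpd 3. Hnrnpd kept its direction and lost its call on log2(FPKM + 1) (-0.647 with and without the minimum), and leaving out 1 library gave -0.737 to -0.626. The causes were not tested. Libraries with the same number correlated at -0.262, 0.137 and 0.104 in their deviations from the group means. Those with different numbers correlated at -0.332 to 0.232. With 3 libraries in a group these values cannot decide whether the numbers pair them. With the replicate block 0 genes were called by edgeR (0 higher, 0 lower, and 1062 at an unadjusted p under 0.05), Hnrnpd had -0.669 (edgeR adjusted p = 0.0873), and 0 members were called. Of 144 medians of lists under an alternative, 14 moved by more than the spread of the controls. Depth limits Mmp2, Mmp3 and Mmp9, with at most 17 counts in a library.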
